A study of Ovis aries with 20 samples.

Results

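Theca cells of adult sheep exposed to testosterone before birth were compared with theca cells of control sheep, gene by gene. The comparison used every theca library of the deposited table, 10 of 19 libraries, with 1 library per animal: 5 of prenatal testosterone animals (prenatal T animals, sheep 209, 210, 230, 276 and 315) and 5 of controls (sheep 139, 224, 244, 246 and 268). The table lists 28524 genes, and the 15492 that reached a value of 10 in 5 or more of these 10 libraries were tested. The question was which genes of the theca layer differ in adult life after the exposure.

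Theca cells form the outer wall of a growing follicle. Under luteinizing hormone they turn cholesterol into androgen, which the granulosa cells inside the follicle convert to estradiol, and their layer carries the follicle's blood vessels and much of its collagen. Excess androgen from theca cells is a known feature of polycystic ovary syndrome, and sheep exposed to testosterone in the womb are used as a model of that syndrome.

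Mothers of the prenatal T animals were injected into muscle with testosterone propionate (100 mg, 1.2 mg/kg) 2 times a week between days 30 and 90 of gestation, and mothers of the controls received vehicle over the same days. The offspring of both groups were 21 months old, at the end of a breeding season, and all had been brought into a common phase of the cycle with 2 injections of 10 mg prostaglandin F2α given 11 days apart. Ovaries were taken 18 hours after the second injection. Theca was microdissected from frozen 14 µm sections on membrane slides, and the tissue of several antral follicles of an animal was pooled, so differences between follicles of 1 animal are not seen. No strain, follicle size or stage was given in the sources used here. The values are read counts per gene that the authors normalized for library size (normalized counts), and p-values measure the spread between animals.

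Values of single animals are given in a fixed order: controls 139, 224, 244, 246 and 268, then prenatal T sheep 209, and then prenatal T sheep 210, 230, 276 and 315. A log2 change is prenatal T minus control on the scale log2(value + 1), with the SE of the limma fit, and understates changes of genes with low values. In bulk tissue, fewer cells of a type and less RNA per cell cannot be told apart.

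The 10 libraries held 14.06 to 18.06 M reads. The library of sheep 209 went against its label. CYP17A1, the enzyme that makes androgen precursors, was at 0 there and at 585 to 2523 in the other 9 libraries, and INSL3, the theca hormone of the insulin family, was at 1.27 against 3546 to 18648. Averaged over the theca markers (19 of 20 tested), the log2 value was 11.12 in sheep 209 and 12.44 to 12.75 in the others. Not every member was low there: FBLN1 was at 33085 against 4150 to 9974 and THY1 at 1798 against 121 to 264. TCF21 was low, at 433 against 1616 to 2314. The mean log2 value of the granulosa marker list (18 genes) was 5.55 against 9.09 to 10.24, and its summed level 26315 against 26554 to 58800. The granulosa marker FSHR was at 0 against 120 to 697. SERPINE2 was high, at 14166 against 4916 to 10222, and INHBA at 5857 lay within the range of the others. Epithelial and immune markers were high in sheep 209. Smooth muscle and pericyte markers were high as a list, with a mean log2 value of 12.33 against 10.54 to 11.55. Within that list MYOCD was lowest in sheep 209, at 411 against 698 to 2128, and MYH11 and MYLK lay within the range of the others. The summed level of 18 epithelial genes was 26863 against 618 to 1382, with the keratin KRT19 at 9626 against 3.74 to 93.1. PTPRC, the common leukocyte antigen CD45, was at 8427 against 265 to 791. Endothelial genes were not high as a list, with a mean log2 value of 9.66 in sheep 209 and 9.33 to 9.78 in the others: PECAM1 was at 5737 against 832 to 1498, while KDR, the main receptor of VEGF, was at 1971 against 2511 to 3432 and CD34 at 1453 against 2619.7 to 4699.9. In the other 9 libraries theca markers were present in both groups, apart from DLK1, which was at 0 to 3.25 in all 10. Granulosa markers were present too. INHA, the inhibin alpha subunit, stood at 1493 to 4665 in controls and 2033 to 6549.6 in prenatal T animals other than sheep 209. Not all members of that list were high: in these 9 libraries CYP19 was at 3.25 to 336 and TNFRSF11B at 4.37 to 37.9. Correlations between libraries over genes, which describe them and share most genes' levels, were r = 0.736 to 0.805 for the 9 pairs with sheep 209 and 0.921 to 0.968 for the 36 pairs without it. Results are therefore given for all 10 libraries and for the 9 without sheep 209.

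**Figure D1:**
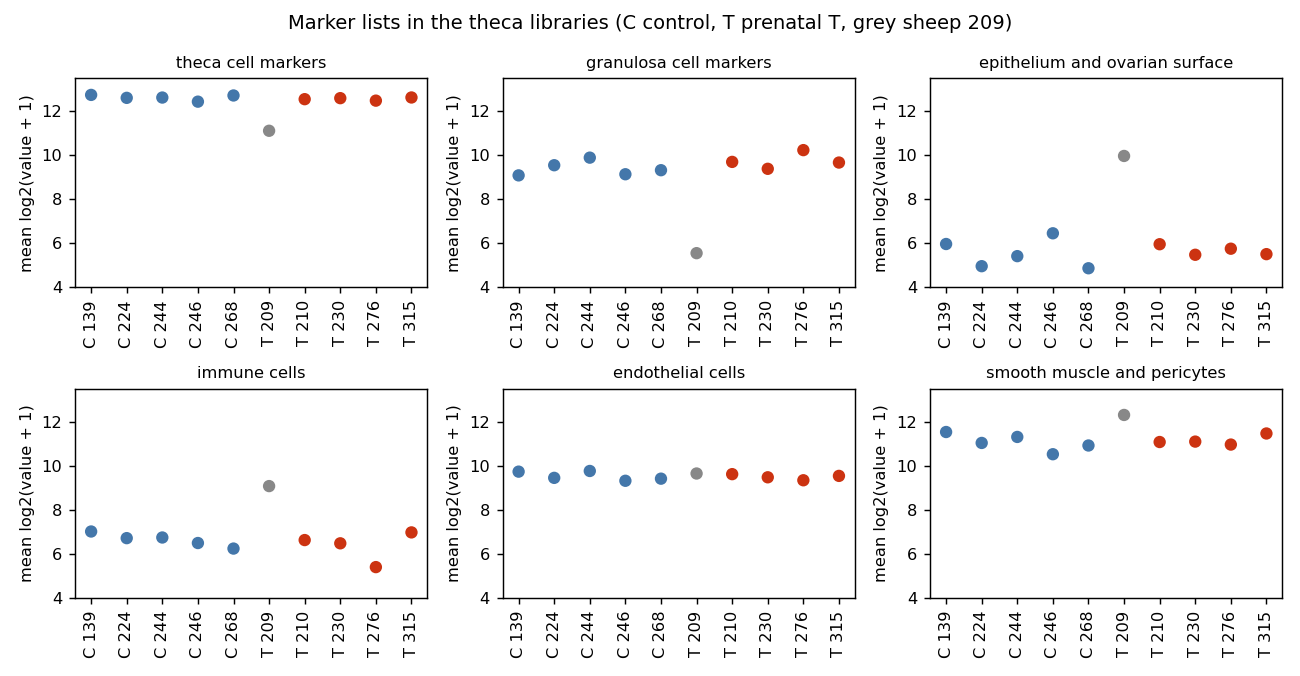
Mean log2(value + 1) of 6 marker lists (vertical axis) in each theca library (horizontal axis), with controls in blue, prenatal T animals in red and sheep 209 in grey. Sheep 209 is lowest for theca markers (11.12) and granulosa markers (5.55) and highest for the epithelial (9.98) and immune (9.09) lists, where the other 9 libraries range from 4.87 to 6.46 and from 5.41 to 7.03. It is also highest for smooth muscle and pericyte markers (12.33), where the others range from 10.54 to 11.55.

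No gene passed the test across all genes. With all libraries limma called 0 of 15492 genes at an adjusted p of 0.05 (percent called 0, smallest adjusted p = 0.644), while at an unadjusted p under 0.05, 627 genes (4.05%) were higher and 565 (3.65%) lower in prenatal T animals. Without sheep 209 limma again called 0 (percent called 0, smallest adjusted p = 0.374), with 976 genes (6.30%) higher and 883 (5.70%) lower at an unadjusted p under 0.05. edgeR, a count test run on the whole reads recovered from the values, called 0 in both, with 1561 (10.1%) and 1955 (12.6%) at an unadjusted p under 0.05. The split of those genes moved with the method when sheep 209 was kept: 1015 (6.55%) were higher and 546 (3.52%) lower by edgeR, and 473 higher and 741 lower by limma after quantile normalization. DESeq2 on the same reads called 7 genes (0.0452%), 2 higher (0.0129%) and 5 lower (0.0323%). Without sheep 209 it called 58 (0.374%), 37 higher (0.239%) and 21 lower (0.136%). These shares are of all 15492 genes. DESeq2 gave no adjusted p to 770 genes with all libraries and 679 without sheep 209, so those could not be called. With all libraries the 5 values of one group lay outside those of the other for 350 genes (2.26%), 198 with the prenatal T animals above (1.28%) and 152 below (0.981%). Without sheep 209 this held for 708 genes (4.57%), 388 above (2.50%) and 320 below (2.07%).

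**Figure D2:**
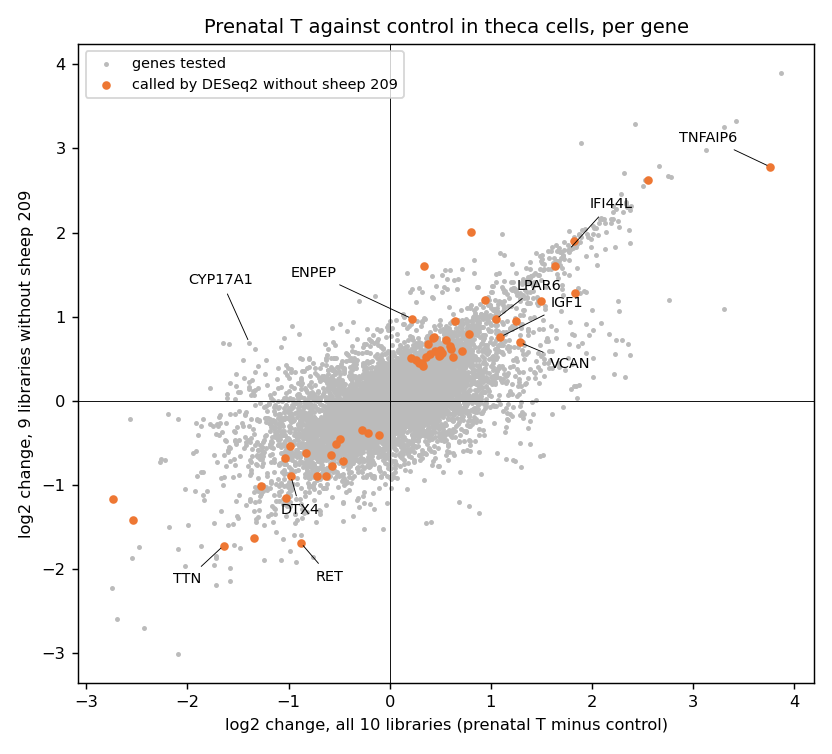
Log2 change of each tested gene, prenatal T minus control, with all 10 libraries (horizontal axis) and with the 9 libraries without sheep 209 (vertical axis), where orange points are the 58 genes that DESeq2 called without sheep 209. DTX4 and TTN lie low and LPAR6 lies high on both axes, while CYP17A1 and ENPEP, low or at 0 in sheep 209, lie left of the diagonal.

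The genes described next were selected for a small p, so their separation between groups follows from the selection and is given as a description. Of the 24 genes selected with all libraries and the 24 without sheep 209, 9 were on both lists: LPAR6, NMD3, SUCO and MANEA with higher values in prenatal T animals, and DTX4, MEX3D, RGL1, TTN and ITPKA with lower values. For all 9 the unadjusted p came with an adjusted p by limma of 0.644 or more with all libraries and of 0.374 without sheep 209. DESeq2 called 5 genes in both sets, TTN, MEX3D, LPAR6, RGL1 and DTX4.

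DTX4, a ubiquitin ligase of the deltex family that acts on Notch receptors, was at 733, 869, 747, 971 and 1074 in the controls, 352 in sheep 209 and 512, 493, 519 and 362 in the other prenatal T animals. The highest prenatal T animal lay below the lowest control, with or without sheep 209. Its log2 change was -0.98 ± 0.17 with all libraries and -0.90 ± 0.15 without sheep 209, and DESeq2 gave adjusted p = 0.00231 and 0.00652. TTN encodes titin, the giant spring protein of muscle. It was at 143, 172, 132, 186 and 50.6 in the controls, 49.3 in sheep 209 and 48.0, 34.5, 44.0 and 26.2 in the other prenatal T animals. All prenatal T animals were below all controls, but control 268 stood close to sheep 209, so the groups barely separated. The log2 change of TTN was -1.64 ± 0.37, or -1.72 ± 0.37 without sheep 209 (DESeq2 adjusted p = 0.0113 and 0.00869).

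MEX3D, an RNA-binding ubiquitin ligase, was at 1953, 2335, 2029.5, 2391 and 2257 in the controls, 1365 in sheep 209 and 1636, 1529, 1516 and 1731 in the other prenatal T animals. All prenatal T values lay below all control values. The fit gave a log2 change of -0.50 ± 0.10, or -0.45 ± 0.10 without sheep 209 (DESeq2 adjusted p = 0.0274 and 0.0289). RGL1, an exchange factor for the Ral GTPases, was at 1476, 1834, 1678, 1381 and 1638 in the controls, 1081 in sheep 209 and 1036, 1082, 1294 and 1051 in the other prenatal T animals. Again no prenatal T animal reached the lowest control, and sheep 276 came nearest to it. This came to a log2 change of -0.53 ± 0.11, or -0.52 ± 0.11 (DESeq2 adjusted p = 0.0274 and 0.0299). ITPKA, an inositol trisphosphate kinase that binds actin, was at 108, 115, 139, 132 and 156 in the controls, 25.3 in sheep 209 and 69.4, 83.7, 51.2 and 54.6 in the other prenatal T animals, without overlap of the groups. limma put the log2 change at -1.27 ± 0.31, or -1.01 ± 0.21 without sheep 209, and DESeq2 called it in the second set (adjusted p = 0.0289) but not in the first (adjusted p = 0.0771). ZNF574, a zinc finger protein, was called by DESeq2 with all libraries alone (adjusted p = 0.0282, then 0.0697), with log2 changes of -0.46 ± 0.11 and -0.45 ± 0.11.

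Other genes of small p were lower in prenatal T animals. HDAC5, a histone deacetylase that responds to signals from the cell surface, was at 2672, 2645, 2793, 3164 and 2841 in the controls, 1951 in sheep 209 and 2521, 2057, 1842 and 1843 in the other prenatal T animals. The groups did not overlap, and sheep 210 lay nearest to the controls. The log2 changes, with all libraries and then without sheep 209, were -0.47 ± 0.11 and -0.46 ± 0.11 for HDAC5 and -0.45 ± 0.11 and -0.40 ± 0.10 for EPHB4, a receptor of ephrin-B2 in veins. They were -0.53 ± 0.13 and -0.48 ± 0.12 for the exchange factor ARHGEF18 and -0.42 ± 0.10 and -0.38 ± 0.10 for AGAP3, which switches off Arf GTPases. They were -0.58 ± 0.14 and -0.52 ± 0.14 for the DNA-binding protein AHDC1 and -1.08 ± 0.27 and -0.98 ± 0.27 for the kinase SBK1. Each of these 6 genes was lower in every prenatal T animal than in every control, and none was called by limma, edgeR or DESeq2.

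LPAR6, a receptor for the lipid signal lysophosphatidic acid, was at 119.5, 95.3, 77.3, 109 and 97.8 in the controls, 258 in sheep 209 and 171, 233, 164 and 219.6 in the other prenatal T animals. All prenatal T animals were above all controls, with sheep 209 the highest and sheep 276 the lowest of them. On the log2 scale the change was 1.05 ± 0.20, or 0.97 ± 0.19 without sheep 209 (DESeq2 adjusted p = 0.00215 and 0.0123). CEPT1, which carries out the last step of phosphatidylcholine and phosphatidylethanolamine synthesis, was at 272, 237, 262, 265 and 264 in the controls, 364 in sheep 209 and 336, 419, 358 and 350.4 in the other prenatal T animals. The controls lay close together and below every prenatal T animal. In the limma fit the log2 change was 0.49 ± 0.12, or 0.49 ± 0.12, and DESeq2 called it with all libraries (adjusted p = 0.0359) and not without sheep 209 (adjusted p = 0.0620).

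NMD3, which exports the large ribosomal subunit from the nucleus, was at 426, 705, 484, 645 and 739.6 in the controls, 978 in sheep 209 and 910.3, 1209, 949 and 1033 in the other prenatal T animals. The lowest prenatal T animal was above the highest control. Its log2 change was 0.78 ± 0.17, or 0.80 ± 0.18 without sheep 209 (DESeq2 adjusted p = 0.0771 and 0.0299). In the 2 sets, log2 changes were 0.50 ± 0.13 and 0.59 ± 0.12 for the ribosome assembly factor NOC3L and 0.50 ± 0.12 and 0.55 ± 0.12 for EXOSC9, a subunit of the RNA exosome. They were 0.61 ± 0.15 and 0.57 ± 0.14 for the translation regulator BZW1, and 0.50 ± 0.15 and 0.60 ± 0.13 for the splicing factor CDC40. For the mitochondrial ribosomal protein MRPL1 they were 0.55 ± 0.20 and 0.72 ± 0.14. In MRPL1 and NOC3L sheep 209 stood among the controls, and the other prenatal T animals were above all of them.

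SUCO, a membrane protein known from bone formation, was at 1190.0, 1553, 1379.8, 1620.0 and 1362 in the controls, 1746 in sheep 209 and 1912, 1967, 2197 and 2349 in the other prenatal T animals. The groups did not overlap. The fit gave a log2 change of 0.52 ± 0.12, or 0.57 ± 0.11 without sheep 209 (DESeq2 adjusted p = 0.0943 and 0.0224). MANEA, a Golgi mannosidase that trims N-glycans, had log2 changes of 0.59 ± 0.15 and 0.65 ± 0.14, and SAR1B, the GTPase of vesicles that leave the endoplasmic reticulum, 0.69 ± 0.16 and 0.61 ± 0.15. Further genes with higher values were PIK3C3, the lipid kinase of autophagy (0.45 ± 0.11 and 0.42 ± 0.11), the prefoldin subunit VBP1 (0.61 ± 0.14 and 0.61 ± 0.14), and UBLCP1, a phosphatase of the proteasome (0.62 ± 0.15 and 0.52 ± 0.12). The sphingolipid enzyme SAMD8 (0.54 ± 0.13 and 0.51 ± 0.13) and the membrane protein TM4SF18 (0.92 ± 0.22 and 0.88 ± 0.23) had higher values as well. Without sheep 209 DESeq2 called SUCO, MANEA, VBP1, UBLCP1, NMD3, NOC3L, MRPL1, CDC40 and EXOSC9. limma and edgeR called none of them.

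**Figure D3:**
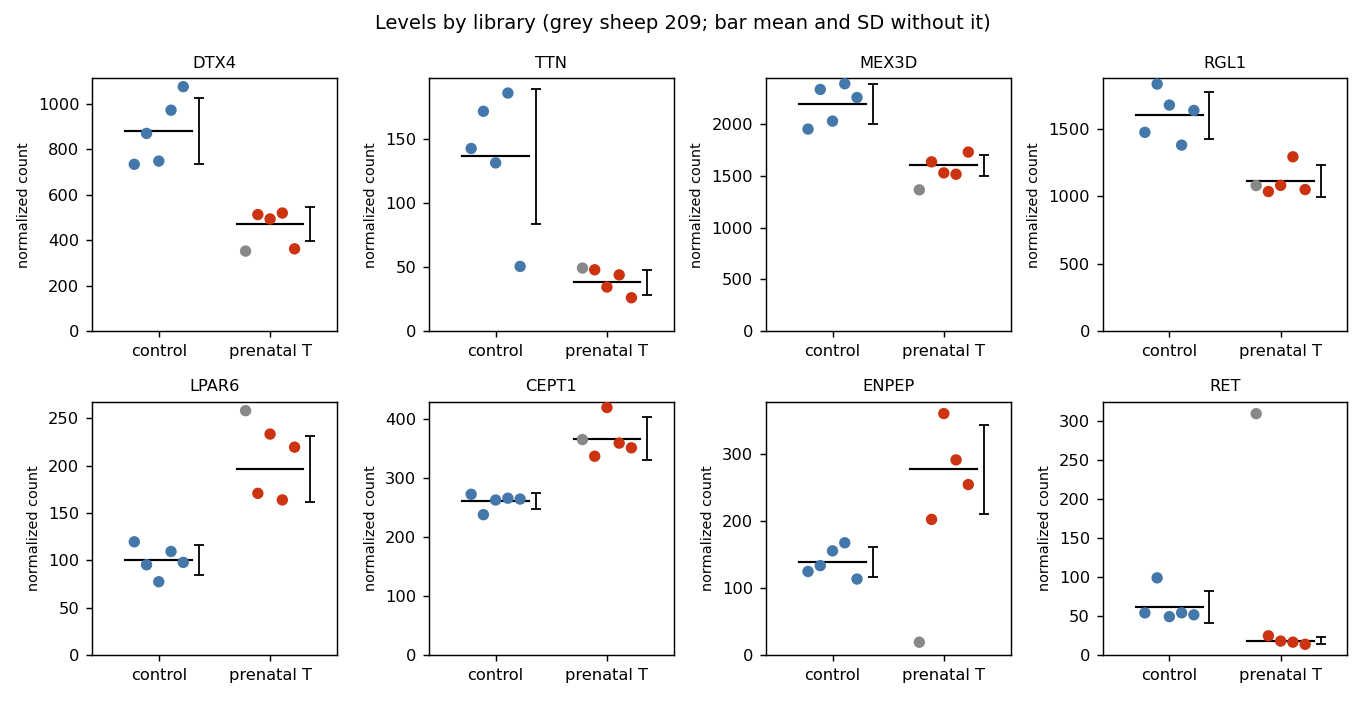
Normalized counts (vertical axis, from 0) of 8 genes in the theca library of each control (blue) and prenatal T animal (red, sheep 209 in grey), with the mean as a line and the SD as a bar, both without sheep 209. DTX4, TTN, MEX3D and RGL1 lie lower and LPAR6 and CEPT1 higher in all 5 prenatal T animals, while in ENPEP and RET sheep 209 lies on the other side of the controls from the rest.

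Other genes entered the selection only without sheep 209, and in most of them that library stood on the side of the controls or beyond it. RET, the receptor of GDNF-family growth factors, was at 53.9, 99.0, 49.2, 54.1 and 51.5 in the controls, 310.0 in sheep 209 and 24.5, 17.8, 16.4 and 13.7 in the other prenatal T animals. The 4 prenatal T animals other than sheep 209 were all below the lowest control, and sheep 209 was above the highest. This came to a log2 change of -0.88 ± 0.76 with all libraries and -1.69 ± 0.30 without sheep 209, where RET stood at 61.6 ± 21.0 in controls (SD, n = 5) and 18.1 ± 4.63 in prenatal T animals other than sheep 209 (SD, n = 4) (DESeq2 adjusted p = 0.0123). With all libraries the sign depended on the method, at -0.88 by limma, 0.28 by edgeR and 0.31 by DESeq2.

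ENPEP, the aminopeptidase that turns angiotensin II into angiotensin III, was at 125, 134, 156, 168 and 114 in the controls, 18.98 in sheep 209 and 203, 361, 292 and 255 in the other prenatal T animals. The same 4 animals were above every control, and sheep 209 was below every control. limma put the log2 change at 0.22 ± 0.68 with all libraries and 0.98 ± 0.20 without sheep 209 (DESeq2 adjusted p = 0.0163). With all libraries but sheep 230 it was -0.07. GJA1, the gap junction protein connexin 43, was at 4934, 6141, 6178, 6919 and 5558 in the controls, 3455 in sheep 209 and 8438, 7247, 11691 and 10989.6 in the other prenatal T animals. It is a granulosa marker too, and sheep 276 and 315 were highest. On the log2 scale the change was 0.38 ± 0.29, or 0.67 ± 0.16 without sheep 209 (DESeq2 adjusted p = 0.0270).

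VCAN, the matrix proteoglycan versican, was at 6928, 7638, 6392, 5061 and 5982 in the controls, 80402 in sheep 209 and 9566, 13344, 9963 and 8690.2 in the other prenatal T animals. Every prenatal T animal exceeded every control, and sheep 209 stood far above the rest. In the limma fit the log2 change was 1.29 ± 0.54, or 0.69 ± 0.15 without sheep 209 (DESeq2 adjusted p = 0.0224). Of genes lower without sheep 209, CACNB3, a calcium channel subunit, was at 496, 478, 641, 669.9 and 548 in the controls, 817 in sheep 209 and 403, 304, 355 and 316 in the other prenatal T animals. The 4 animals other than sheep 209 were below all controls, and sheep 209 was above them. Log2 changes with and without sheep 209 were -0.46 ± 0.26 and -0.71 ± 0.14 for CACNB3, -0.57 ± 0.24 and -0.78 ± 0.17 for DAGLA, which makes the endocannabinoid 2-arachidonoylglycerol, and -0.62 ± 0.30 and -0.90 ± 0.19 for LENG9. They were -0.99 ± 0.40 and -0.54 ± 0.12 for the mastermind-like coactivator MAMLD1 and -0.83 ± 0.22 and -0.63 ± 0.14 for CRTC1, a coactivator of CREB. The centrin CETN3 (0.21 ± 0.28 and 0.50 ± 0.10) and the DNA repair helicase HLTF (0.26 ± 0.22 and 0.48 ± 0.11) were higher in the 4 animals than in all controls and lowest in sheep 209. DESeq2 called all of these without sheep 209.

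The steroid pathway, which defines theca cells, showed no gene past the threshold. Of 25 tested genes of androgen synthesis and theca function, 11 had a log2 change above 0 with all libraries (median -0.08) and 17 without sheep 209 (median 0.25), beside 50.01% and 48.38% of all genes tested and medians of 0.00 and -0.01. At an unadjusted p under 0.05, 1 member was higher with all libraries (4.05% of all genes were) and 6 without sheep 209 (6.30% of all genes were), CYP11A1, FDX1, HSD3B1, LHCGR, HSD17B10 and CYP17A1. In none of the 25 did the groups separate in either set, and of all genes 2.26% and 4.57% did. Without sheep 209 and a further library, the median lay between 0.13 (without sheep 315) and 0.26.

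CYP17A1 was at 585, 901, 702, 924 and 1112 in the controls, 0 in sheep 209 and 1105, 795, 2523 and 1404 in the other prenatal T animals. Sheep 276 and 315 were above all controls, sheep 210 was just under the highest control and sheep 230 was among the controls. Its log2 change was -1.39 ± 1.82 with all libraries and 0.69 ± 0.30 without sheep 209 (unadjusted p = 0.0406, adjusted p by limma = 0.406). CYP11A1, which cuts the side chain of cholesterol as the first step to all steroids, was at 1421, 1922, 2192, 2489 and 2394 in the controls, 0 in sheep 209 and 2809.9, 2070.2, 5356 and 3781 in the other prenatal T animals. The order among the prenatal T animals was as for CYP17A1, except that sheep 210 was also above all controls. The fit gave a log2 change of -1.65 ± 2.04, or 0.69 ± 0.25 without sheep 209 (adjusted p by limma = 0.384).

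LHCGR, the receptor of luteinizing hormone, was at 1016, 1354, 1837, 2092 and 1891 in the controls, 0 in sheep 209 and 2189, 1745, 4564 and 2335 in the other prenatal T animals. Sheep 210, 276 and 315 were above all controls, and sheep 230 was within the range of the controls. This came to a log2 change of -1.59 ± 1.98, or 0.67 ± 0.28 without sheep 209. HSD3B1, which makes progesterone and androstenedione, was at 482, 605, 659, 1249.9 and 1118 in the controls, 1.27 in sheep 209 and 851, 1125, 1714 and 2512 in the other prenatal T animals, with sheep 276 and 315 alone above all controls. limma put the log2 change at -0.97 ± 1.65, or 0.89 ± 0.35. FDX1, the ferredoxin that passes electrons to CYP11A1, was at 606, 985, 751, 1279 and 1076 in the controls, 364 in sheep 209 and 1045, 1033, 2541 and 2425 in the other prenatal T animals. Here too sheep 276 and 315 were apart from all controls and from the other prenatal T animals (log2 change 0.39 ± 0.48, or 0.82 ± 0.32 without sheep 209). For STAR, which brings cholesterol into mitochondria, values were 399, 805, 454, 493 and 688 in the controls, 225 in sheep 209 and 515, 288, 1465 and 2374 in the other prenatal T animals. Sheep 276 and 315 were the 2 highest and sheep 230 and 209 the 2 lowest of the 10, so the spread within the prenatal T group exceeded the difference (log2 change 0.25 ± 0.60, or 0.63 ± 0.52). INSL3 was at 3546, 10247, 8880.4, 18648 and 9871 in the controls, 1.27 in sheep 209 and 5638, 5342, 13965 and 8565 in the other prenatal T animals, with overlapping groups (log2 change -2.57 ± 2.07, or -0.22 ± 0.42).

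Beside these values, sheep 276 had the highest granulosa marker level of the 10 libraries, a list mean of 10.24. The other 3 prenatal T animals apart from sheep 209 had 9.39 to 9.70 and the controls 9.09 to 9.90. Granulosa markers were above 0 in 15 of 18 genes without sheep 209 (median 0.36, or 0.13 without sheep 276 also), and in 5 of 18 with all libraries (median -0.68). Their part in the steroid gene values was not tested. AMH, made by granulosa cells, had log2 changes of -1.34 ± 1.73 and 0.62 ± 0.36. The transcription factors NR5A1 (-2.09 ± 1.63, or -0.22 ± 0.19 without sheep 209) and GATA4 (-2.19 ± 1.77, or -0.16 ± 0.12), which drive steroidogenic genes, had overlapping groups in both sets and stood at 1.27 and 2.53 in sheep 209.

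**Figure D4:**
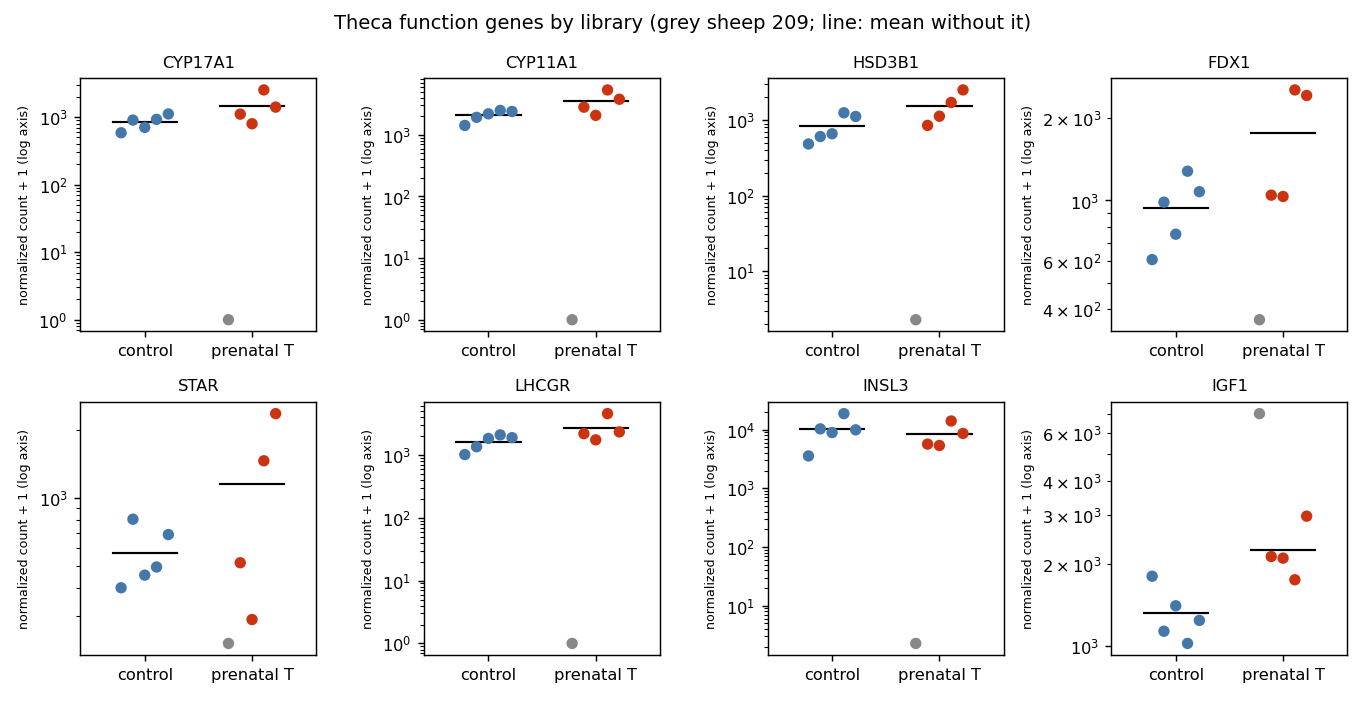
Normalized counts plus 1 on a log axis (vertical) of 8 genes of theca function in controls (blue) and prenatal T animals (red, sheep 209 in grey), with the mean without sheep 209 as a line. In CYP11A1, HSD3B1, FDX1, STAR and CYP17A1 sheep 276 and 315 are the highest of all 10 libraries, and sheep 209 is at or near 0 in CYP17A1, CYP11A1, HSD3B1, LHCGR and INSL3.

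Genes of cholesterol synthesis and uptake supply the precursor. Of 26 members tested, 19 had a log2 change above 0 with all libraries (median 0.25) and 22 without sheep 209 (median 0.38, and 0.19 without sheep 276 also). At an unadjusted p under 0.05, 3 and then 6 were higher, and 0 and then 1 lower (4.05% and 6.30% of all genes were higher and 3.65% and 5.70% lower). limma called 0 of them. SC5D, a late enzyme of cholesterol synthesis, was at 446, 427, 418, 414 and 436 in the controls, 395 in sheep 209 and 467, 654, 814 and 691 in the other prenatal T animals. The controls lay within a narrow range, the prenatal T animals other than sheep 209 were above them, and sheep 209 was below. On the log2 scale the change was 0.45 ± 0.19, or 0.59 ± 0.15 without sheep 209 (DESeq2 adjusted p = 0.0498). SOAT1, which esterifies cholesterol for storage, was at 223, 247, 233, 299.8 and 258 in the controls, 991 in sheep 209 and 298, 304, 588 and 944 in the other prenatal T animals. Sheep 209, 276, 315 and 230 exceeded all controls, and sheep 210 did not (log2 change 1.13 ± 0.35, or 0.91 ± 0.31). The cholesterol carrier STARD4 had log2 changes of 0.84 ± 0.26 and 0.73 ± 0.26, with overlapping groups.

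Of 19 receptors for sex steroids, gonadotropins and related signals, 10 had a change above 0 in both sets (medians 0.00 and 0.06). ESR1, the estrogen receptor alpha, was at 8246 in sheep 209 and 1035 to 1571 elsewhere, with log2 changes of 0.49 ± 0.49 and -0.05 ± 0.12, and PGR, the progesterone receptor, had 0.26 ± 0.22 and 0.22 ± 0.22. Apart from ESR1 in sheep 209, the groups overlapped in both genes.

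In the insulin and IGF axis (32 genes), 13 changes were above 0 with all libraries and 12 without sheep 209 (medians -0.07 and -0.12, the latter 0.01 without sheep 230 also). IGF1, a growth factor that acts with luteinizing hormone on theca cells, was at 1798, 1133, 1403, 1023 and 1241 in the controls, 7043 in sheep 209 and 2122, 2093, 1746 and 2978 in the other prenatal T animals. Sheep 209 was highest, and all but sheep 276 of the prenatal T animals were above all controls. In the limma fit the log2 change was 1.10 ± 0.34, or 0.76 ± 0.19 without sheep 209 (unadjusted p = 0.00866 and 0.00175), and DESeq2 called IGF1 without sheep 209 (adjusted p = 0.0325) and not with it (adjusted p = 0.145). IGF2, an imprinted growth factor made by theca, was at 11595, 7928, 8532, 7124 and 6601 in the controls, 1275 in sheep 209 and 6082, 6744, 5325 and 5623 in the other prenatal T animals. All prenatal T animals but sheep 230 were below all controls, and sheep 230 was just above the lowest, control 268. Its log2 change was -0.91 ± 0.41, or -0.47 ± 0.16. INSR, the insulin receptor, had log2 changes of -0.31 ± 0.19 and -0.23 ± 0.18, IGF1R -0.15 ± 0.28 and -0.13 ± 0.29, and the kinase subunit PIK3CA 0.32 ± 0.10 and 0.31 ± 0.11.

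The hedgehog pathway, by which granulosa cells act on theca, had 14 of 15 tested members below 0 in both sets, with a median of -0.53 with all libraries and -0.13 without sheep 209. With 1 further library left out the median lay between -0.29 (without control 246) and -0.09 (without control 139), and 11 to 14 of 15 members were below 0. At an unadjusted p under 0.05, 3 members were lower in both, GLI3, KIF7 and SUFU (3.65% and 5.70% of all genes were lower at that level). Log2 changes were -0.59 ± 0.22 and -0.38 ± 0.13 for the transcription factor GLI3, -0.46 ± 0.15 and -0.44 ± 0.15 for the ciliary kinesin KIF7 and -0.49 ± 0.17 and -0.38 ± 0.14 for the pathway inhibitor SUFU. The pathway's targets in theca, PTCH1 and GLI1, had -0.54 ± 0.41 and -0.51 ± 0.47 with all libraries and -0.13 ± 0.21 and -0.10 ± 0.31 without sheep 209, where their sign turned when 1 further animal was left out (sheep 315 for PTCH1, control 268 for GLI1). In the Notch pathway 11 of 20 members were below 0 with all libraries and 14 without sheep 209 (medians -0.06 and -0.10). DTX4, NOTCH3 and DTX1 were the members with an unadjusted p under 0.05, all lower. NOTCH3, the Notch receptor of mural cells, had log2 changes of -0.43 ± 0.16 and -0.38 ± 0.16, and the deltex gene DTX1 had -0.47 ± 0.19 and -0.47 ± 0.20.

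In the Wnt pathway 16 of 30 members were below 0 with all libraries and 17 without sheep 209 (medians -0.05 and -0.17, the latter -0.01 without sheep 276 also), and log2 changes were -0.36 ± 0.17 and -0.42 ± 0.17 for the target AXIN2 and -0.30 ± 0.12 and -0.29 ± 0.12 for the coreceptor LRP5. Of 35 genes of TGF-beta, BMP and activin signalling, 19 and 17 were above 0 (medians 0.02 and -0.02). ACVR2B, an activin receptor, was at 209, 228, 327, 240.2 and 265 in the controls, 65.8 in sheep 209 and 209, 126, 152 and 100.1 in the other prenatal T animals. No prenatal T animal was above a control, and sheep 210 and control 139 were nearly level. The fit gave a log2 change of -1.04 ± 0.29, or -0.82 ± 0.22 without sheep 209. TGFBR1, the type I TGF-beta receptor, was higher in all prenatal T animals (0.57 ± 0.27 and 0.28 ± 0.09), and SMAD5, which carries BMP signals, in all but sheep 209 (0.12 ± 0.21 and 0.33 ± 0.11).

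Matrix genes lay on both sides of 0. Of 51 tested, 27 were above 0 with all libraries and 16 without sheep 209 (medians 0.05 and -0.16). Without sheep 209, 1 was higher and 4 were lower at an unadjusted p under 0.05, beside 6.30% and 5.70% of all genes. The main fibrillar collagens had lower means: COL1A1 stood at 361195 ± 63937 in controls (SD, n = 5) and 280393 ± 34033 in prenatal T animals other than sheep 209 (SD, n = 4), with a log2 change of -0.35 ± 0.23 (-0.58 ± 0.35 with all libraries), and COL1A2 had -0.31 ± 0.19 (-0.42 ± 0.26 with all libraries). Their groups overlapped. After quantile normalization the change without sheep 209 was -1.015e-16 for COL1A1, which is 0 within rounding, and -0.043 for COL1A2. That scaling assigns values by rank, so a gene that keeps its rank in every library gets a change of 0 whatever its level. This setting therefore cannot decide whether COL1A1 was lower. The theca marker list, which holds these collagens, had 6 of 19 members above 0 in both sets (medians -0.28 and -0.11, the latter between -0.23 without control 246 and -0.02 without control 139), with NR2F1, a nuclear receptor of theca, at -0.28 ± 0.17 and -0.29 ± 0.18.

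Among 22 genes of blood vessel growth, 9 and 13 were above 0 (medians -0.05 and 0.03). HIF1A, the oxygen-sensing transcription factor, was at 3972, 5217, 4351, 4468 and 4802 in the controls, 20047 in sheep 209 and 5926, 5445, 8961 and 6056 in the other prenatal T animals. All prenatal T animals were above all controls, with sheep 209 and 276 highest. This came to a log2 change of 0.84 ± 0.32, or 0.51 ± 0.15 without sheep 209, while 31 genes of hypoxia and glycolysis had 25 and then 16 members above 0 (medians 0.28 and 0.00). VEGFA, the main vessel growth factor, had 0.49 ± 0.31 and 0.20 ± 0.19. FGD5, an endothelial exchange factor for Cdc42, was at 986, 821, 857, 669.9 and 699 in the controls, 748 in sheep 209 and 640.3, 503, 568 and 568 in the other prenatal T animals. Without sheep 209 all prenatal T animals were below all controls, and with it they overlapped (log2 change -0.41 ± 0.15, or -0.49 ± 0.13). Of 23 endothelial markers, 10 and 8 were above 0 (medians -0.09 and -0.08). The list's mean log2 value lay at 9.33 to 9.78 in controls and 9.36 to 9.66 in prenatal T animals. ROBO4, a guidance receptor of endothelium, had -0.63 ± 0.21 and -0.48 ± 0.17, and PLVAP, a protein of fenestrated vessels, 1.78 ± 0.82 and 0.94 ± 0.39. Smooth muscle and pericyte markers were above 0 in 14 and 13 of 18 genes (medians 0.26 and 0.10, the latter -0.09 without control 246 also).

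Of 18 ovulation genes and EGF-like factors, 14 and 11 were above 0 (medians 0.52 and 0.16, the latter -0.01 without sheep 315 also). TNFAIP6, which cross-links the matrix around the egg at ovulation, was at 16.9, 4.67, 21.1, 5.41 and 55.0 in the controls, 3151 in sheep 209 and 98.2, 215, 29.7 and 179.8 in the other prenatal T animals. Sheep 209 was far above all others, sheep 210, 230 and 315 were above all controls, and sheep 276 was below control 268. limma put the log2 change at 3.76 ± 1.10, or 2.78 ± 0.74 without sheep 209 (DESeq2 adjusted p = 0.0299, none of the limma fits called it). At such low control levels the fitted change depends on the pseudocount.

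Enzymes that modify DNA and histones keep genes open or silent. Of 61 tested, 50 were below 0 with all libraries and 49 without sheep 209 (medians -0.15 and -0.17). At an unadjusted p under 0.05, 8 and 12 were lower and 0 higher (4.05% and 6.30% of all genes were higher and 3.65% and 5.70% lower). Leaving out 1 further library kept the median between -0.22 and -0.10. KDM2B, a histone demethylase, was at 839.9, 806, 777, 790.0 and 824 in the controls, 754 in sheep 209 and 726, 489.8, 521 and 617 in the other prenatal T animals. Every prenatal T animal was below every control, with log2 changes of -0.40 ± 0.14 and -0.47 ± 0.12. KDM2B and HDAC5 were the 2 of 61 members without overlap in both sets, where 2.26% and 4.57% of all genes had none. TET3, which oxidizes methylated cytosine, was at 898, 1003, 1139, 1036 and 996 in the controls, 1079 in sheep 209 and 949, 578, 672 and 597 in the other prenatal T animals. Sheep 230, 276 and 315 were below all controls, while sheep 209 and 210 were within the range of the controls (log2 change -0.43 ± 0.18, or -0.56 ± 0.15). limma, edgeR and DESeq2 called 0 of the 61.

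Imprinted genes, expressed from 1 parental copy, were below 0 in 13 of 13 tested with all libraries (median -0.28) and in 10 of 13 without sheep 209 (median -0.14). Without sheep 209, 5 were lower at an unadjusted p under 0.05, IGF2, NNAT, PEG10, IGF2R and GRB10 (5.70% of all genes were lower). PEG10, a gene derived from a retrotransposon, was at 5509.8, 8337, 6069, 6595 and 7328 in the controls, 83.5 in sheep 209 and 5414, 3694, 6566 and 4249.5 in the other prenatal T animals. Sheep 209 was lowest, sheep 210, 230 and 315 were also below all controls, and sheep 276 was within their range (log2 change -1.63 ± 1.03, or -0.46 ± 0.18). NNAT, a small membrane protein, had -1.29 ± 0.60 and -0.65 ± 0.23. Leaving out a further library moved the list median between -0.23 (without control 246) and -0.05 (without control 268).

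Genes of oxidative phosphorylation were above 0 in 20 of 29 with all libraries and 23 of 29 without sheep 209 (medians 0.06 and 0.15), with ATP5F1C, a subunit of ATP synthase, at 0.25 ± 0.17 and 0.36 ± 0.14. Without control 244 as well the median was 0.06. Ribosomal protein genes were above 0 in 9 of 54 with all libraries (median -0.17) and in 35 of 54 without sheep 209 (median 0.06). RPL27A had 0.13 ± 0.24 and 0.37 ± 0.12. Cell cycle genes were above 0 in 8 of 43, and in 22 of 43 without sheep 209 (medians -0.28 and 0.01). Without sheep 209 and a further library, the count for cell cycle genes ran from 6 (without control 244, median -0.16) to 33 of 43, and the median reached 0.16 (without sheep 210).

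Interferon response genes, which restrict viruses, were above 0 in 28 of 28 in both sets, with medians of 1.06 and 0.98. By limma 0 of them had an unadjusted p under 0.05, a level at which 4.05% and 6.30% of all genes were higher. The list's mean log2 value was 12.25 in sheep 315 and 9.21 in sheep 209, against 7.46 to 8.13 in the other prenatal T animals and 7.57 to 8.55 in controls. IFI44L was at 55.0, 43.9, 46.2, 17.3 and 46.3 in the controls, 128 in sheep 209 and 71.5, 79.5, 45.05 and 1388 in the other prenatal T animals. Sheep 315 stood above every other animal, and apart from it and sheep 209 the groups overlapped. IFI44 and IFIT5 were at 3809 and 7029 in sheep 315. Without sheep 209 and 315 the list had 15 of 28 genes above 0 and a median of 0.03.

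Most lists of other cell types and of stress had a higher median when sheep 209 was kept. With all libraries and then without sheep 209, immune cell genes were above 0 in 13 and 4 of 19 (medians 0.33 and -0.22), cytokine and NF-kappaB genes in 17 and 12 of 22 (0.72 and 0.02) and immediate early genes in 26 and 16 of 28 (0.54 and 0.09). Without sheep 209 and 276 the immune list had 10 of 19 genes above 0 and a median of 0.075, and without sheep 209 and 315 a median of -0.55. FOS, an immediate early transcription factor, had log2 changes of 1.19 ± 0.51 and 0.64 ± 0.20. Unfolded protein and heat shock genes were above 0 in 24 and 22 of 28 (0.35 and 0.13), epithelial genes in 8 and 5 of 9 (0.63 and 0.01), and apoptosis and atresia genes in 14 and 13 of 26 (0.03 and -0.04). XIAP, an inhibitor of caspases, was at 1085, 1135, 1129, 933 and 1051 in the controls, 1408 in sheep 209 and 1224, 1436, 1253 and 1588 in the other prenatal T animals. Every prenatal T animal exceeded every control (log2 change 0.37 ± 0.11, or 0.36 ± 0.11 without sheep 209). At an unadjusted p under 0.05 by limma, 2 apoptosis and atresia genes were higher in both sets, XIAP among them, and 1 and then 4 lower. Of all genes, 4.05% and 6.30% were higher at that level and 3.65% and 5.70% lower. Of 13 oocyte genes only 2 were tested, both below 0 (medians -0.34 and -0.36). Receptors and enzymes of the cell surface, a list that holds RET, ENPEP and LPAR6, were above 0 in 13 and 14 of 26 (-0.01 and 0.05).

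Genes near polycystic ovary syndrome risk variants were above 0 in 10 of 20 with all libraries and 13 of 20 without sheep 209 (medians 0.02 and 0.20, the latter 0.09 without sheep 276 also). At an unadjusted p under 0.05, 2 and then 5 were higher, beside 4.05% and 6.30% of all genes, and 0 were lower. KRR1, a ribosome assembly factor, was at 572, 516, 449, 530.3 and 550.1 in the controls, 598 in sheep 209 and 681, 824, 626 and 910.2 in the other prenatal T animals. All prenatal T animals were above all controls (log2 change 0.46 ± 0.14, or 0.53 ± 0.13 without sheep 209). THADA, known from diabetes and thyroid studies, had 0.35 ± 0.12 and 0.29 ± 0.11, with overlap.

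**Figure D5:**
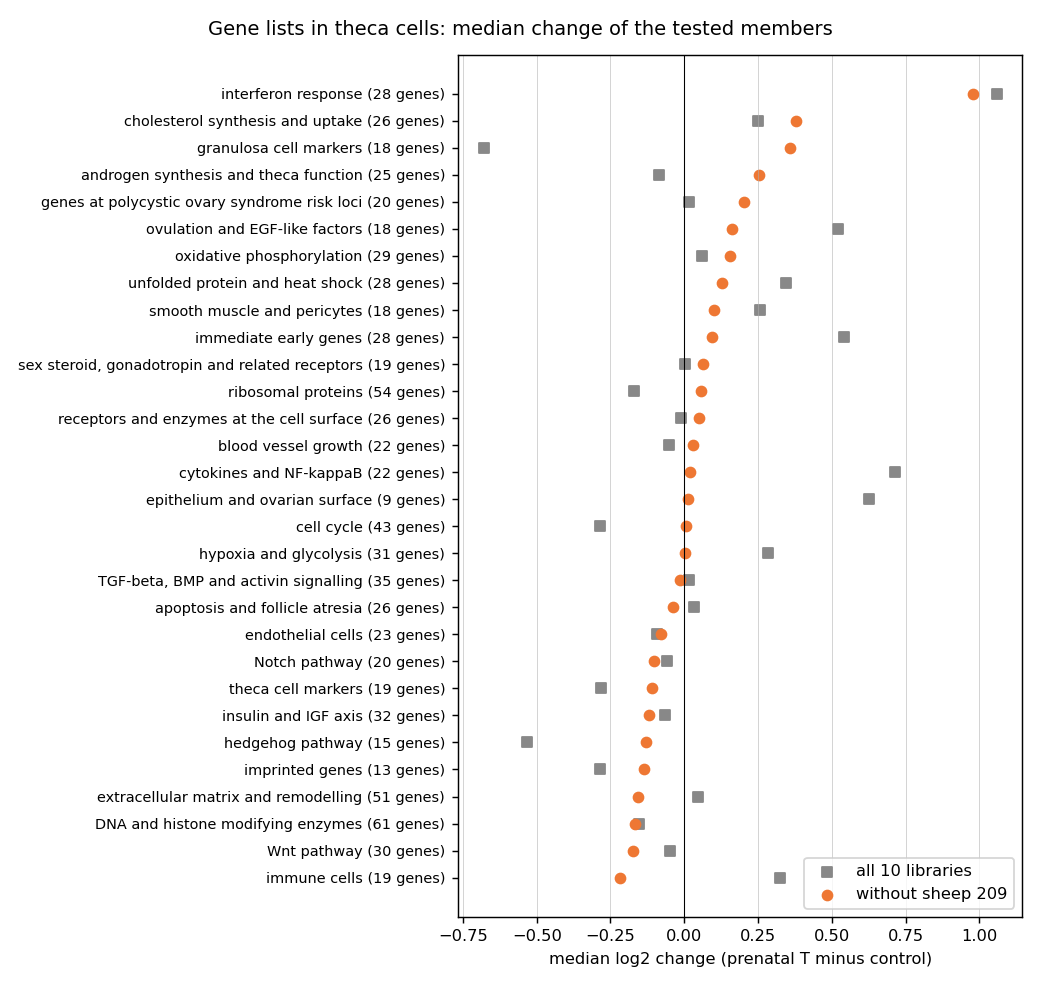
Median log2 change, prenatal T minus control (horizontal axis), of the tested members of 30 gene lists, with all 10 libraries (grey squares) and without sheep 209 (orange circles). Interferon genes are highest in both (1.06 and 0.98), DNA and histone modifying enzymes lie at -0.15 and -0.17, and granulosa markers move from -0.68 to 0.36.

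The difference of the prenatal T effect between theca and granulosa cells of the same animals was tested in 1 limma fit of 16269 genes. For granulosa controls there were 4 libraries, since the deposited table holds no column for that of control 139. The fit had the animal as a block. It called 0 genes with all libraries (percent called 0, smallest adjusted p = 0.0985) and 0 without sheep 209 (percent called 0, smallest adjusted p = 0.0750), with 881 (5.42%) and 1468 (9.02%) at an unadjusted p under 0.05. FGD5 had the smallest p with all libraries. Its theca effect was above its granulosa effect by 1.28 ± 0.20 with all libraries (adjusted p by limma = 0.0985) and 1.16 ± 0.21 without sheep 209 (adjusted p = 0.146). FGD5 was lower after prenatal T in theca, as given above, and its granulosa change lay further below 0. IGF1 had log2 changes of 0.76 ± 0.19 in theca and -0.96 ± 0.42 in granulosa without sheep 209, a difference of 1.72 ± 0.41 (unadjusted p = 0.000671, adjusted p by limma = 0.287), and with all libraries the difference was 1.59 ± 0.46 (adjusted p = 0.766). For RET the difference was -2.28 ± 0.84 with all libraries and -2.02 ± 0.57 without sheep 209 (adjusted p by limma = 0.865 and 0.402). It was 0.70 ± 0.15 and 0.57 ± 0.13 for SAMD8 (adjusted p by limma = 0.349 and 0.265) and 0.40 ± 0.11 and 0.48 ± 0.10 for XIAP (0.631 and 0.260). For DTX4 the granulosa change was -0.65 ± 0.53, or -1.02 ± 0.36 without sheep 209, and the difference -0.33 ± 0.46, or 0.13 ± 0.35 (adjusted p by limma = 0.979 and 0.939). None of these differences passed the threshold. Leaving out sheep 209 removed both of its layers here. The granulosa change of the granulosa marker INHA was -1.76 ± 1.62 with all libraries and 0.45 ± 0.45 without sheep 209. That of FSHR was -1.98 ± 1.62 and 0.19 ± 0.44.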

How the data were processed

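Total RNA of theca cells was sequenced after depletion of ribosomal RNA, per the labels' protocols. Per the submitters' processing notes, the tools included the aligner STAR 2.6.0c, the counter featureCounts (Subread 1.6.1) and DESeq2, with FastQC 0.11.5 and MultiQC 0.9 for quality checks, while the genome build and the strand setting of the counting are not given in the sources used here, so reads of overlapping genes or near-identical copies may be shared. Each value the authors deposited is a signal, a read count of a gene divided by the size factor of its library, as the values show: in each theca library, dividing by a fixed step turned 100% of values into whole numbers (relative tolerance 1e-06), which were taken as reads (14.06 to 18.06 M per library). 0 columns of values lacked a sample. Of 10441 LOC identifiers, 6969 were found in the gene table of RefSeq for assembly ARS-UI_Ramb_v3.0, used for names only, and 406 were given a symbol. That table holds no sequences, and none are printed.

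Genes that reached a value of 10 in 5 or more of the 10 theca libraries were tested on log2(value + 1) by limma 3.58.1 in R 4.3.3, with a trend of variance on mean, two-sided, with Benjamini-Hochberg adjustment over all tested genes and a threshold of 0.05, with and without sheep 209. The recovered reads were also tested by the quasi-likelihood test of edgeR 4.0.16 and by DESeq2 1.42.0. The difference between layers was fitted with the animal as a block. Its pairing rests on the sheep number in the labels: over genes, the deviations of its 2 layers had r = 0.80 in sheep 209 and 0.44 to 0.72 in the other animals. In 9 of 9 animals the own layer matched best. No 2 libraries of a group agreed within sampling noise (over 20 pairs, the lowest ratio of chi-square to its degrees of freedom was 27.6). Fits were tested on simulated data.

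In each fit the 12 genes of smallest p in each direction with a symbol and a mean of at least 10 were selected, with 21 fixed genes and up to 3 genes of smallest p per list. Not every gene this selects is described, and some are not reported here. HSD17B10, IGF2R and GRB10 are named as list members only. The comparison, the 31 gene lists and the fixed genes were chosen with earlier results of these data known. Lists are described by counts and medians without a test. Alternatives were the 2 count tests, limma-voom, pseudocounts of 0.5 and 5, no filter or a minimum of 50, TMM and quantile scaling, array weights, robust moderation, a fit of both layers with a replicate block, and leaving out each library. Leaving out a further library for list medians was chosen after seeing the data.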

Additional observations from a re-analysis of the deposited data

Results flagged for a closer look

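For each gene and list of the text, the highest and the lowest animal of each group were compared with the rest of the group, and a value was noted where its gap to the next animal took up most of the group's range. Chance alone gives this in about 1 in 20 groups that are independent and normally distributed. The groups here share animals, and the prenatal T group was examined with and without sheep 209. That rate is therefore no test of the count found. Of 372 groups examined, 54 held such a value, and 33 of these were the library of sheep 209.

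Sheep 209 was far below the other prenatal T animals in the mean log2 values of androgen synthesis (5.941), theca markers (11.12), granulosa markers (5.554), receptors (8.715), hedgehog (7.744), imprinted (8.752), ribosomal (12.21) and polycystic ovary syndrome genes (8.115). It was far above them for epithelium (9.975), extracellular matrix (13.46), hypoxia and glycolysis (10.79), cytokines (11.75), immediate early genes (10.95) and heat shock genes (12.3). Among single genes it was low in CETN3 (286), HLTF (1188), MAMLD1 (117.7), GATA4 (2.531), IGF2 (1275) and RPL27A (7837). It was high in VCAN (80402), RET (310.0), CACNB3 (817.4), LENG9 (205), DAGLA (173.3), ESR1 (8246), IGF1 (7043), TGFBR1 (3886), HIF1A (20047), VEGFA (1741), PLVAP (4020), TNFAIP6 (3151) and FOS (2670).

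Sheep 315 stood above the other prenatal T animals in interferon genes, with IFI44L at 1388, IFI44 at 3809 and IFIT5 at 7029, with or without sheep 209 in the group, and a list mean of 12.25. It was low in DTX4 (361.8) once sheep 209 was set aside. Sheep 276 was high in RGL1 (1294). Sheep 210 was high in KIF7 (1375) and NOTCH3 (4396) and, without sheep 209, in AGAP3 (865.5), GLI3 (1149) and the ribosomal list mean (13.52). Sheep 230 was, without sheep 209, low in MAMLD1 (472.0) and high in SMAD5 (3412). Among controls, sheep 246 was low in the hedgehog list mean (8.996) and high in PIK3C3 (685), sheep 139 was high in the interferon list mean (8.548), and sheep 224 was high in RET (99.0) and low in CEPT1 (237.3).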

How the results depend on the processing

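limma called 0 genes under every scaling, pseudocount, filter, weighting and left-out library, except that without sheep 209 and with no filter it called 1, an unnamed locus whose values were all under 1.27. The replicate block left 0 calls in both sets of libraries and for the difference between layers. limma-voom and edgeR called 0, and DESeq2 called 7 genes, or 58 without sheep 209. With 1 animal left out, the number of genes that differed between layers lay between 0 and 1 in both sets. Array weights gave sheep 209 a weight of 0.101. Genes of unadjusted p under 0.05 numbered 810 (without control 244) to 1859 when 1 library was left out of all 10, and 1123 (without sheep 230) to 2447 (without sheep 210) when 1 more was left out of the 9.

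With all libraries the sign of some genes turned with the method. By edgeR, DESeq2 and array weights the log2 changes were 0.46, 0.46 and 0.50 for CYP17A1, 0.43, 0.43 and 0.53 for CYP11A1, 0.58, 0.59 and 0.79 for HSD3B1, 0.40, 0.40 and 0.56 for LHCGR, and 0.27, 0.27 and 0.30 for AMH. RET was at 0.28 by edgeR and 0.31 by DESeq2, and ESR1 at -0.019 with array weights. Leaving out each library in turn gave ranges that crossed 0 for AMH (-2.035 to 0.62), CYP11A1 (-2.41 to 0.69), CYP17A1 (-2.14 to 0.69), HSD3B1 (-1.64 to 0.89), LHCGR (-2.37 to 0.67), ESR1 (-0.052 to 0.65), ENPEP (-0.069 to 0.98), IGF1R (-0.31 to 0.025) and STAR (-0.22 to 0.63). In the 9 libraries without sheep 209 the ranges that crossed 0 were ESR1 (-0.13 to 0.017), GLI1 (-0.39 to 0.10), IGF1R (-0.29 to 0.11), INSL3 (-0.55 to 0.044) and PTCH1 (-0.29 to 0.024). The cause was not tested, beyond the values of sheep 209. Without sheep 209, leaving out a further library turned the sign of the median in 15 of 31 lists. A group of 4 or 5 animals limits what the tests can call.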
